A study of Mus musculus with 2 samples.

Results

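Ly6a, Procr, Eng and Cd93 encode surface proteins used to recognise hematopoietic stem cells, and they were chosen by name, as 4 of the 11691 genes in a table of unique molecular identifiers (UMIs) from single sorted cells. Their levels were followed across cells with little and with much Cpa3, a protease of mast cell granules, in embryo explants (Em-Ex) and yolk sac explants (YS-Ex). Both kinds of explant came from C57/BL6 mice at embryonic day 8.5 with 5 to 7 somite pairs. They were cultured for 10 days with SCF, IL-3 and FLT3 ligand, each at 100 ng/ml, after which the CD31+CD45+c-Kit+CD41- fraction was sorted and its cells captured in droplets. Both groups shared strain, stage, cytokines and sort, and differed in the tissue placed in culture. Each group was 1 library of cells pooled from many concepti, so no difference between the groups has a replicate check, and every interval below is a 95% interval for counting error only.

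As background, Ly6a encodes Sca-1, a lipid-anchored protein of the Ly6 family that marks adult mouse stem cells and answers to interferon. Procr encodes the endothelial protein C receptor, which binds protein C on endothelium and is carried by stem cells. Eng encodes endoglin, an accessory receptor for ligands of the TGF-β and BMP family, known from endothelium and from stem cells. Cd93 encodes a C-type lectin-like receptor of endothelial, myeloid and early blood cells. Mast cells depend on SCF and its receptor Kit, and they grow in cultures with SCF and IL-3. In the GENCODE annotation of GRCm38, Ly6a lies on the minus strand at chr15:74994877-74998031, Eng on the plus strand at chr2:32646595-32682669, Cd93 on the minus strand at chr2:148436640-148443563 and Procr on the plus strand at chr2:155751117-155755471.

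The Em-Ex library held 3504 barcodes with 48630888 UMIs and the YS-Ex library 3037 barcodes with 34566242 UMIs, of which 3071 and 2087 cells passed the filter on genes and mitochondrial UMIs. Median depth was 12341 UMIs per cell in Em-Ex and 11729 in YS-Ex. Within each library, a gene was either found in at least 30 barcodes or listed at 0 in all of them, as a filter applied to each library would leave it, so a gene listed at 0 may still have been present in up to 29 barcodes. In all, 35 barcodes occurred in both libraries.

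Cells with under 20 Cpa3 UMIs per 10000 were called Cpa3-low. They were 641 of 3071 Em-Ex cells (20.9%, 19.4 to 22.4%) and 69 of 2087 YS-Ex cells (3.31%, 2.58 to 4.17%), and 77 and 19 of them lay within 2-fold below the limit. Clustering without the 4 genes showed that the Cpa3-low class was not 1 kind of cell. In Em-Ex, 473 of the 641 fell in cluster 7, led by Hoxa9, Mpo, BC035044, Il12a and Flt3. A further 34 fell in cluster 10, led by S100a9, S100a8, Mmp12, F10 and Mrc1, where 11 of 11 macrophage markers were at least 3-fold up. Cluster 11, led by Actc1, Acta2 and Dcn, took 23, cluster 12, led by hemoglobin and other red cell genes, took 23, and 88 sat in clusters in which Cpa3 was high. In YS-Ex, 34 of the 69 sat in Cpa3-high clusters, 17 were of cluster 7, 13 of cluster 10, 4 of cluster 11 and 1 of cluster 12. Of the 18 YS-Ex cells in cluster 7, 9 carried a barcode also found in Em-Ex. Values are therefore given both for the class and for cluster 7. Of the genes behind the sort, Kit stood at 75.3 UMIs per 1000000 (CPM) in Cpa3-low and 335 CPM in Cpa3-high Em-Ex cells, Pecam1 (CD31) at 28.1 and 54.9 CPM, Ptprc (CD45) at 54.7 and 44.5 CPM, and Itga2b (CD41) at 4.06 and 21.3 CPM.

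Of the 4 genes, Eng had the largest ratio between the 2 classes. Cpa3-low Em-Ex cells held 322 Eng UMIs, a level of 26.7 CPM (23.9 to 29.8). The more numerous Cpa3-high Em-Ex cells held 18, a level of 0.586 CPM. The ratio was 45.5 (28.4 to 77.8). Eng reached the minimum of 50 UMIs for gene counts only through the Cpa3-low cells, so this ratio is a description. An Eng UMI was found in 199 of 641 Cpa3-low cells (31.0%) and in 14 of 2430 Cpa3-high cells (0.576%). With every cell thinned to 2000 UMIs, to remove the greater depth of the Cpa3-low cells (median 18290 against 11343 UMIs), the shares were 4.99% and 0.165%. Ly6a was also 2-fold or more higher in Cpa3-low cells of Em-Ex, but it fell below 2-fold in 5 of the alternatives, thinning among them, where its log2 ratio was 0.88 in place of 1.10. Procr and Cd93 were not 2-fold higher, and none of the 4 was 2-fold or more lower. Among all 10723 genes with at least 50 UMIs, 19.5% were 2-fold or more higher and 10.7% were 2-fold or more lower, so a 2-fold difference by itself was common in this contrast.

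**Figure D1:**
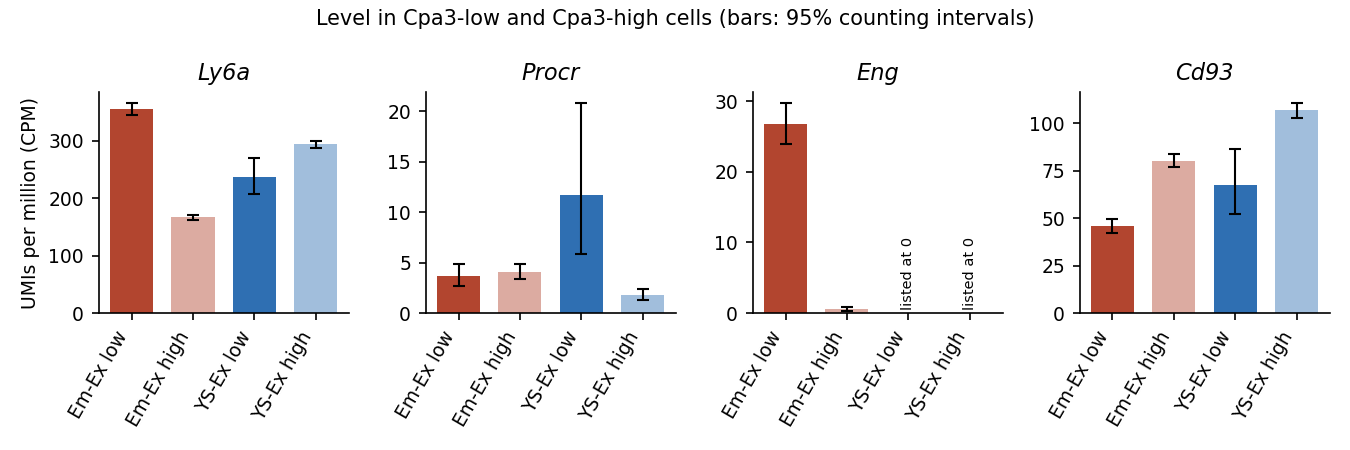
Level of each gene in CPM (y axes, each with its own scale) in Cpa3-low cells (full colour) and Cpa3-high cells (pale) of Em-Ex (red) and YS-Ex (blue), with 95% counting intervals. Eng stood at 26.7 CPM in Em-Ex Cpa3-low cells and 0.586 CPM in Cpa3-high cells and is not drawn for YS-Ex, where it was listed at 0, whereas Cd93 was higher in the Cpa3-high cells of both libraries.

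Eng stood lower in ranges with more Cpa3, but the intervals of all neighbouring ranges overlapped, so single steps were not resolved. It stood at 35.1 CPM in Em-Ex cells with under 1 Cpa3 UMI per 10000, at 27.2 CPM from 1 to 2, at 26.1 CPM from 2 to 5, at 16.9 CPM from 5 to 10 and at 3.79 CPM (1.03 to 9.70) from 10 to 20. From 20 to 40 it was 2.11 CPM (0.849 to 4.35), and no Eng UMI was found in the 1030 cells with 120 or more. The ranges just below and just above the limit of 20 rested on 4 and 7 Eng UMIs, and their intervals overlapped. The 88 Cpa3-low cells that sat in Cpa3-high clusters held no Eng UMI, which allows up to 3.30 CPM. By contrast, 15 Cpa3-high cells that sat in Cpa3-low clusters held 6 of the 18 Eng UMIs of their class.

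By cluster, Eng was concentrated in cluster 7, at 32.0 CPM (28.5 to 35.7), with a UMI in 199 of 483 cells (41.2%). It was 83.8 times (47.3 to 164) the level in the Cpa3-high clusters, where 12 UMIs were found in 2503 cells. Cluster 11, with the highest point estimate at 43.9 CPM, rested on 8 UMIs in 2 of 23 cells, so its interval of 19.0 to 86.5 CPM spans the level of cluster 7. Clusters 10 and 12 held 1 UMI each. In cluster 12, whose leading genes are those of red cells, 3 of 24 Em-Ex cells (12.5%, 2.66 to 32.4%) had a Ly6a UMI. A Cd93 UMI was found in 2 of them (8.33%, 1.03 to 27.0%), at a median of 22331 UMIs per cell. Cluster 7, at a median of 20700 UMIs, had 81.2% of cells with Ly6a and 55.5% with Cd93. How much of these UMIs came from free RNA was not tested.

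In YS-Ex, Eng was listed at 0, so no ratio between the libraries was formed. Over all deposited barcodes, Eng was found in 255 of 3504 in Em-Ex (7.28%, 6.44 to 8.19%), and a filter at 30 barcodes, which is inferred from the table and not stated by the sources used here, would allow at most 29 of 3037 in YS-Ex (0.955%). The yolk sac library held only 18 cells of cluster 7, fewer than 30. Under such a filter Eng could have been present in each of them and still be listed at 0, and a lower level per cell in YS-Ex cannot be told apart from fewer cells of this kind.

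Ly6a, unlike Eng, was carried by both classes. In Em-Ex it stood at 356 CPM (346 to 367) in Cpa3-low cells and at 167 CPM (162 to 171) in Cpa3-high cells, a ratio of 2.14 (2.05 to 2.23). In YS-Ex the class totals stood in the other order, with 237 CPM (207 to 270) in Cpa3-low cells and 294 CPM (287 to 301) in Cpa3-high cells, a ratio of 0.807 (0.704 to 0.922). Macrophage markers summed to 752 CPM in Em-Ex Cpa3-low cells and 2712 CPM in YS-Ex Cpa3-low cells, with 212 and 74.2 CPM in Cpa3-high cells and all 11 above 0 in each class. Without clusters 10, 11 and 12 the log2 ratio of Ly6a was 1.18 in place of 1.10 in Em-Ex and -0.15 in place of -0.31 in YS-Ex. After thinning, a Ly6a UMI was found in 34.9% of Cpa3-low and 18.6% of Cpa3-high Em-Ex cells, and in 26.1% and 27.6% of YS-Ex cells. The low YS-Ex class was uneven: 20 of its 69 cells, those with 2 to 5 Cpa3 UMIs per 10000, stood at 43.8 CPM (24.5 to 72.2), while the other ranges below the limit stood at 266 to 423 CPM. The YS-Ex ratio also depended on the limit: at 40 Cpa3 UMIs per 10000 the log2 ratio was 0.13 instead of -0.31. Of the 3 genes measured in YS-Ex, only Procr was 2-fold or more higher in Cpa3-low cells and none was 2-fold or more lower, while 12.4% of 10061 genes were higher and 9.1% were lower.

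**Figure D2:**
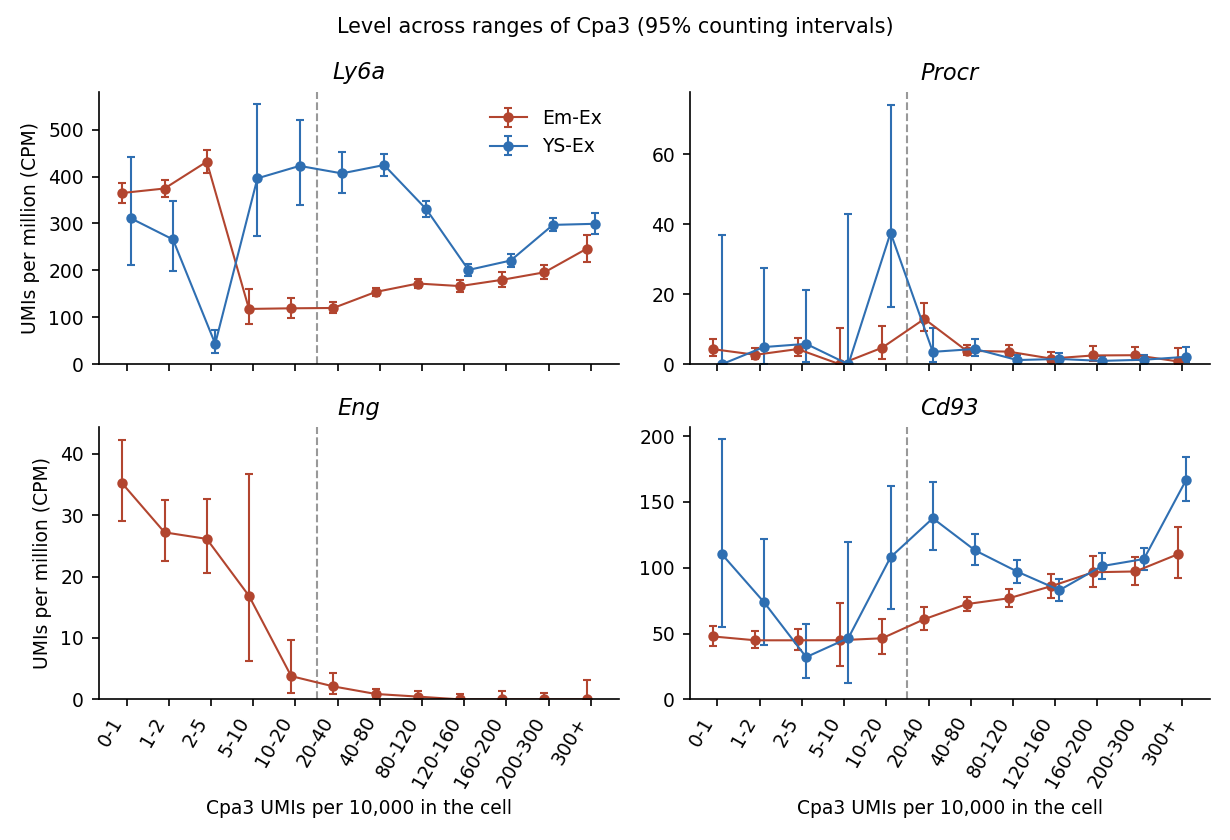
Level of each gene (CPM, y axes) in cells grouped by their Cpa3 UMIs per 10000 (x axis) in Em-Ex (red) and YS-Ex (blue), with 95% counting intervals and a dashed line at the limit of 20; Eng is shown for Em-Ex only because it was listed at 0 in YS-Ex. Eng declined from 35.1 to 3.79 CPM before the limit, Ly6a in Em-Ex dropped between the ranges 2 to 5 and 5 to 10, and Cd93 in Em-Ex was higher in the ranges above the limit.

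Across the ranges of Cpa3, Ly6a in Em-Ex did not decline evenly. It stood at 365, 375 and 432 CPM in the 3 ranges below 5 Cpa3 UMIs per 10000, at 118 CPM in the 26 cells from 5 to 10, at 120 CPM from 20 to 40 and at 246 CPM (219 to 276) above 300. Among Cpa3-high cells of Em-Ex, those with the most Cpa3 thus carried more Ly6a than those with the least. In YS-Ex, Ly6a below the limit was 311, 266, 43.8, 396 and 423 CPM in the 5 ranges from least to most Cpa3, each of 10 to 20 cells. Above it, Ly6a was 425 CPM at 40 to 80, 201 CPM at 120 to 160 and 299 CPM above 300, with no single direction.

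Among Em-Ex clusters with at least 30 cells, the order of Ly6a was cluster 7 (407 CPM), cluster 10 (406 CPM), cluster 5 (365 CPM), cluster 8 (361 CPM), cluster 2 (254 CPM), cluster 9 (188 CPM), cluster 4 (153 CPM), cluster 3 (108 CPM), cluster 1 (75.4 CPM) and cluster 6 (29.4 CPM). The intervals of neighbours among the first 4 overlapped, and those of all later neighbours did not. Cluster 5 was led by Calca, Tnfrsf9, Mxd1, Ctla2a and Stmn2, and cluster 8 by Mcpt1, Mcpt2, Igf2, H19 and Mcpt4, the first, second and last of these being mast cell proteases. Cpa3-high cells of these clusters thus carried a level of Ly6a near that of cluster 7. Cluster 1, led by genes of dividing cells such as Esco2 and Mki67, and cluster 6, led by Cd3g, Itga4, Tob1, Pdlim1 and Btg2, were low. Against all Cpa3-high clusters together, cluster 7 was higher by 2.51 times (2.41 to 2.62). In the same contrast 20.3% of genes were 2-fold or more higher and 13.4% were 2-fold or more lower.

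**Figure D3:**
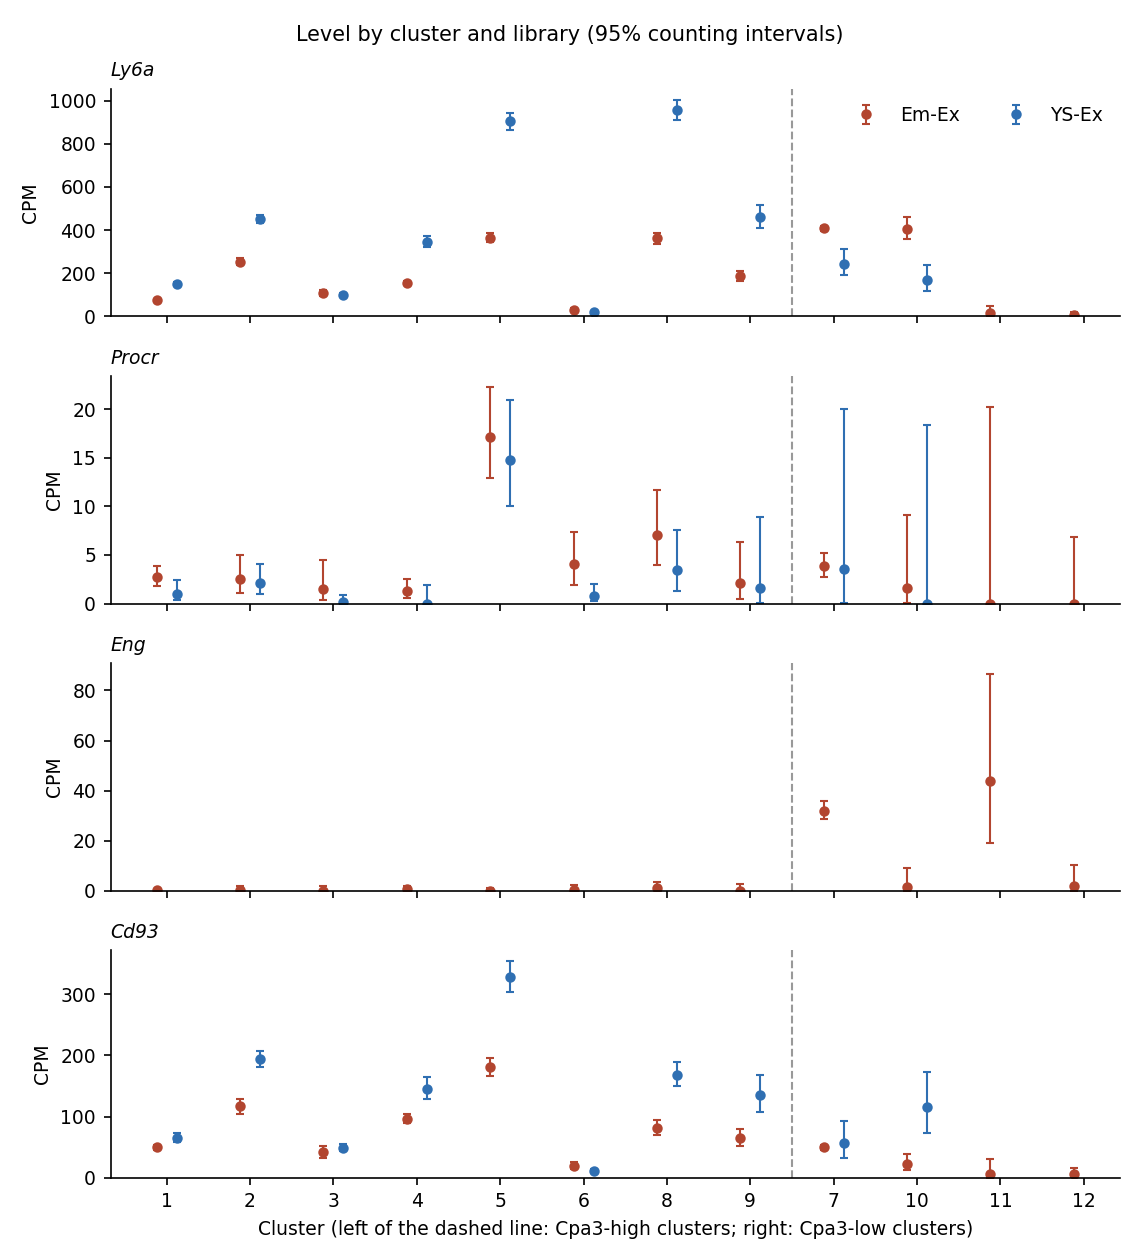
Level of each gene (CPM, y axes) by cluster in Em-Ex (red) and YS-Ex (blue), with 95% counting intervals, for cluster parts of at least 10 cells; Cpa3-high clusters are to the left of the dashed line and Eng is shown for Em-Ex only. Among Cpa3-high clusters, Ly6a and Cd93 were both lowest in cluster 6 and high in cluster 5, Procr stood out in cluster 5, and Eng was seen mainly in clusters 7 and 11.

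Between the libraries, Ly6a was higher in the Cpa3-high cells of YS-Ex by 1.76 times (1.70 to 1.83). The excess was not shared by all clusters. In clusters 1, 2, 4, 5, 8 and 9, Ly6a in YS-Ex was 1.77 to 2.65 times that in Em-Ex, reaching 957 CPM against 361 CPM in cluster 8. In cluster 3, led by Layn, Ccr2, Cpb1, Il13 and Btg2, the ratio was 0.910 (0.776 to 1.07), in cluster 6 it was 0.669, and in cluster 7 it was 0.601. The last of these rests on 18 YS-Ex cells at 245 CPM, and the 9 whose barcode was not found in Em-Ex stood at 228 CPM. Kit, for comparison, was 2.32 to 4.08 times higher in YS-Ex in every one of the 8 Cpa3-high clusters. In Cpa3-low cells, Ly6a was higher in Em-Ex by 1.50 times, a log2 ratio of 0.58, but the direction depended on the limit. It was -0.06 with the limit at 40 Cpa3 UMIs per 10000 and 0.25 as a mean over cells. Of the 3 genes that both libraries list, none was 2-fold or more higher in Em-Ex Cpa3-low cells and Procr was 2-fold or more lower, against 7.46% and 14.1% of 8996 genes. That Procr call rested on 11 YS-Ex UMIs and ended at both other limits, where its log2 ratio was -0.42 at 10 and -0.51 at 40 in place of -1.72. In Cpa3-high cells, Procr alone was 2-fold or more higher in Em-Ex and none was lower, against 1.73% and 11.5% of 10601 genes. The log2 ratio of Procr there, 1.18, fell under 2-fold at a limit of 10 (0.97), at a limit of 40 (0.79) and after thinning (0.77).

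Ly6a was unevenly distributed over the cells of a cluster. In Em-Ex cluster 5, 49.6% of cells held no Ly6a UMI while the 10% of cells with most held 62.0% of all Ly6a UMIs, and 1 cell held 51. In cluster 8 the corresponding shares were 56.2% and 59.6%, and in cluster 7 they were 18.8% and 41.3%. In cluster 10, of 38 cells, they were 47.4% and 75.8%. After thinning, the variance over the mean of Ly6a UMIs per cell was 3.77, 4.27 and 2.45 for clusters 5, 8 and 7, where counting alone gives a value near 1. Cd93 gave 1.29, 1.32 and 1.21 for the same clusters, and Kit 1.15, 1.10 and 1.02. Eng gave 1.16 in cluster 7 and Procr 0.976 in cluster 5. The ratio can rise with the level, which differed between these genes, and Cpa3, whose level was far higher, gave 10.6 in cluster 8. In YS-Ex, Ly6a gave 3.74 for cluster 5 and 2.49 for cluster 8. A mean level of Ly6a thus combined cells with many UMIs and cells with none.

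**Figure D4:**
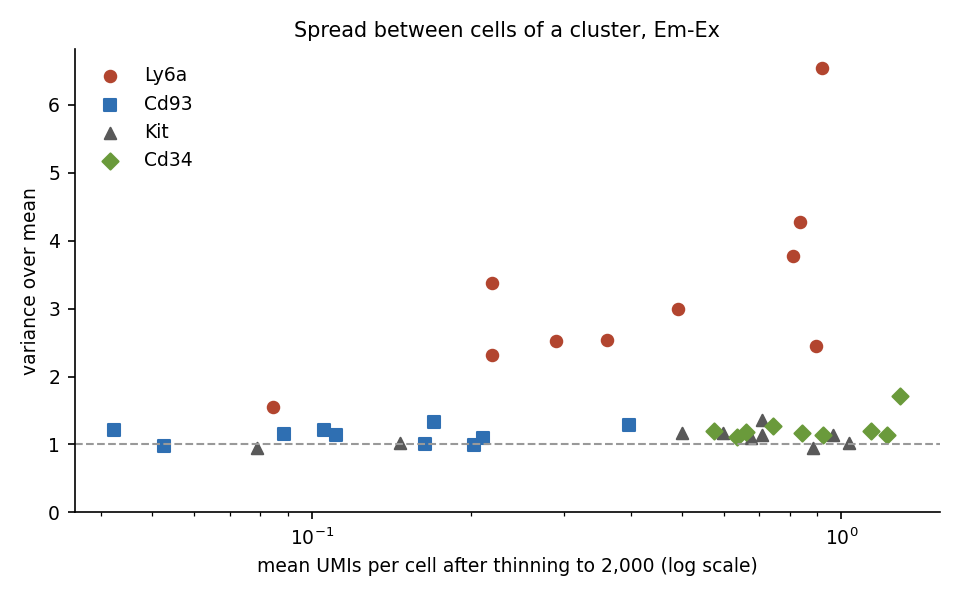
Variance over mean of UMIs per cell (y axis) against the mean (x axis, log scale), after thinning each cell to 2000 UMIs, for Ly6a, Cd93, Kit and Cd34 in each Em-Ex cluster of at least 30 cells, except Cd34 in cluster 10, which had no UMI after thinning; the dashed line marks 1, the value of counting alone. Ly6a lay between 1.55 in cluster 6 and 6.54 in cluster 10, and in each of these clusters it lay above Cd93 and Kit.

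Cd93 had a lower pooled level in Cpa3-low than in Cpa3-high cells of both libraries, less firmly in YS-Ex. In Em-Ex it stood at 45.8 CPM in Cpa3-low and 80.4 CPM in Cpa3-high cells, a ratio of 0.569 (0.518 to 0.625), and in YS-Ex at 67.8 and 107 CPM, a ratio of 0.634 (0.487 to 0.812). At full depth the shares of Em-Ex cells with a Cd93 UMI were alike, 47.0% and 47.2%, but after thinning they were 8.58% and 15.3%. In YS-Ex the thinned shares were 14.5% (7.17 to 25.0%) and 19.3% (17.6 to 21.1%), with overlapping intervals, and the log2 ratio of -0.65 became -0.07 with the limit at 40 and -0.25 after thinning. Cluster 7 held 49.9 CPM in Em-Ex, 0.626 times the level of the Cpa3-high clusters. Cluster 5 was highest, with 180 CPM from the embryo explants and 328 CPM from the yolk sac explants, and cluster 6 was lowest among the Cpa3-high clusters, at 19.4 and 10.5 CPM. The interval of cluster 7 overlapped that of cluster 1 (49.7 CPM). Across the Cpa3 ranges of Em-Ex, Cd93 stayed between 44.9 and 47.8 CPM below the limit and then stood at 60.9 CPM from 20 to 40 and 110 CPM (92.2 to 131) above 300. In Cpa3-high cells as a whole the YS-Ex level of Cd93 was 1.33 times that of Em-Ex, while in cluster 6 it was 0.544 times.

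The levels of Cd93 and Ly6a went together over the 8 Cpa3-high clusters of Em-Ex (Pearson r of log2(CPM + 1) = 0.903), which share a library. Over the 10 clusters that include clusters 7 and 10 the value was 0.478. These clusters had the highest pooled levels of Ly6a, while for Cd93 cluster 7 was the sixth of the 10 and cluster 10 the ninth. The Ly6a level of cluster 10 rested on 38 cells, of which 1 held 74 of 248 UMIs. In single Cpa3-high Em-Ex cells after thinning, Ly6a was found in 29.0% (24.4 to 33.8%) of cells with a Cd93 UMI and in 16.7% (15.1 to 18.4%) of cells without. In YS-Ex these shares were 45.2% and 23.3%. Inside cluster 7 they were 46.7% (31.7 to 62.1%) and 42.2% (37.6 to 47.0%), and inside YS-Ex cluster 8 they were 61.2% and 58.8%, with overlapping intervals in both. In cluster 5 of Em-Ex they did not overlap, at 42.2% (32.4 to 52.3%) and 23.8% (18.5 to 29.8%). For Eng in cluster 7 the intervals overlapped, as they did for Cd93 there. After thinning, Ly6a was found in 35.5% (19.2 to 54.6%) of 31 cells with an Eng UMI. It was found in 43.1% (38.5 to 47.9%) of those without. With 31 cells, a pairing could be neither shown nor excluded.

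Procr was sparse in both libraries, and in Em-Ex its ratio between the classes depended on the processing. It stood at 3.65 CPM in Cpa3-low and 4.10 CPM in Cpa3-high Em-Ex cells, a ratio of 0.889 (0.616 to 1.26), with a UMI in 4.37% and 3.29% of cells. The log2 ratio of -0.16 became 0.90 with the limit at 40 and -1.18 after thinning. In YS-Ex it was 11.7 CPM (5.82 to 20.8) against 1.80 CPM, a ratio of 6.47 (3.02 to 12.6), but this rested on 11 UMIs in 4 of the 69 cells, and 1 cell held 7 of them. Of the 11 UMIs, 10 lay in Cpa3-low cells that sat in Cpa3-high clusters. With the limit at 10 Cpa3 UMIs per 10000, the YS-Ex log2 ratio was 1.18 instead of 2.74. Procr was highest in cluster 5, where the embryo explants gave 17.1 CPM (12.9 to 22.3) and the yolk sac explants 14.8 CPM (10.0 to 20.9). This cluster held 55 of 170 Em-Ex UMIs (32.4%) and 31 of 58 YS-Ex UMIs (53.4%). Cluster 7 held 3.82 CPM, 0.918 times the level of the Cpa3-high clusters, and with clustering at resolution 2 the log2 ratio of the cluster highest in Mpo was -1.21 in place of -0.11. In Cpa3-high cells Procr in YS-Ex was 0.439 times the Em-Ex level, while in cluster 5 the ratio was 0.861, with an interval of 0.536 to 1.36.

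Taking the 4 genes per cell, 24 of 483 Em-Ex cells of cluster 7 (4.97%) held a UMI of none of them, against 847 of 2430 Cpa3-high cells (34.9%), at greater depth in cluster 7. The share differed among Cpa3-high clusters, and it was 18.1% in Em-Ex cluster 5, 7.56% in YS-Ex cluster 5 and 7.61% in YS-Ex cluster 8. The YS-Ex shares leave out Eng, which was listed at 0 there. All 4 genes were found together in 8 Em-Ex cells, each in cluster 7, and in no Cpa3-high cell. Doublets were not removed, and their part in these counts was not tested. In cluster 5, 12 of 337 Em-Ex cells held 3 of the 4.

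The other surface genes of stem cells had ratios in both directions. In the contrast of cluster 7 with the Cpa3-high clusters, 20.3% of all genes were 2-fold or more higher and 13.4% were 2-fold or more lower, and list counts are given beside these shares. Several listed genes, among them Flt3, Hlf, Hoxa9, Ctsg and F2rl3, had under 50 UMIs in the Cpa3-high clusters, as had Eng. They were measured mainly through cluster 7, so nothing is read from the counts of genes higher there. Since the clusters were made from the genes of these cells, and Cpa3 set the classes, the list values of cluster 7 are descriptions. Of 12 measured in cluster 7 against the Cpa3-high clusters of Em-Ex, 5 were 2-fold or more higher and 4 were lower, beside 20.3% and 13.4% of all genes, with a median log2 ratio of 0.47 beside 0.29 over all genes. Flt3, the receptor of the FLT3 ligand in the medium, stood at 67.3 CPM in cluster 7 against 0.572 CPM in the Cpa3-high clusters. Itga6, an integrin subunit, stood at 19.3 against 1.75 CPM. Cd27 and Cd48 were 4.65 and 3.63 times higher there. Kit was 0.189 times, Cd9 0.262 times and Cd34 0.637 times the level of the Cpa3-high clusters. Flt3, like Eng, was listed at 0 in YS-Ex.

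Of the stem cell transcription factor and related genes of the HSC list, 9 were measured in cluster 7, where 6 were 2-fold or more higher and 1 was lower, beside 20.3% and 13.4% of all genes. Hlf stood at 20.5 CPM against 0.0953 CPM, Hoxa9 at 53.2 against 0.254 CPM and Mycn at 106 against 2.29 CPM. Gata2, which mast cells also express, stood at 25.9 against 541 CPM. Of 7 measured markers of neutrophil progenitors, 6 were 2-fold or more higher in cluster 7, beside 20.3% of all genes. Mpo, a granule enzyme of these cells, stood at 560 against 4.32 CPM. Of 14 mast cell markers, all 14 were 2-fold or more lower, beside 13.4% of all genes. Of 10 endothelial markers 7 were not in the table, among them Cdh5, Kdr, Tek and Tie1. The other 3, Ramp2, Egfl7 and Plvap, summed to 302 CPM in cluster 7 and 18.9 CPM in Cpa3-high cells. Egfl7 weighed most: in Em-Ex Cpa3-low cells it held 2964 UMIs, against 94 of Ramp2 and 33 of Plvap. Macrophage markers summed to 137 CPM in cluster 7 and 212 CPM in Cpa3-high cells, and stromal markers to 15.8 CPM in cluster 7.

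**Figure D5:**
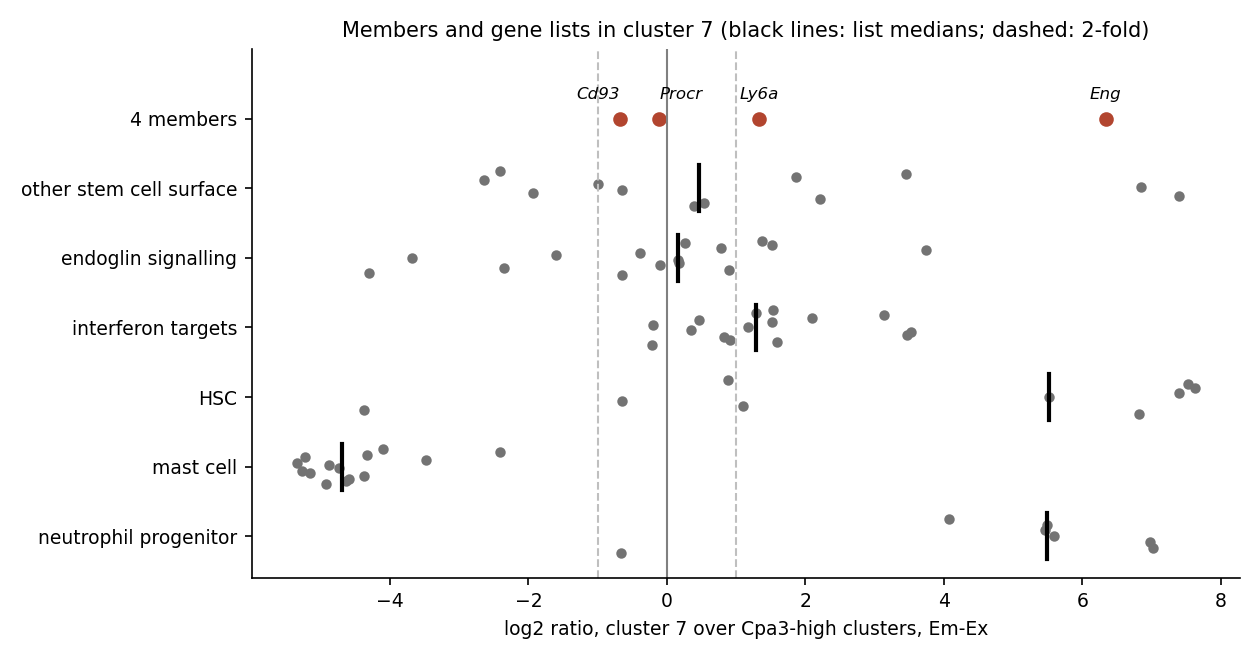
Log2 ratio of cluster 7 over the Cpa3-high clusters of Em-Ex (x axis) for the 4 genes (red) and for the measured genes of 6 lists (grey points, 1 per gene), with list medians as black lines and dashed lines at 2-fold. Eng lay among the highest values shown, Ly6a just beyond 2-fold, and Procr and Cd93 inside the dashed lines, while all 14 mast cell genes lay at the low end.

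Genes of the pathway that endoglin takes part in had ratios in both directions. In cluster 7, 15 of the 20 listed genes were measured, of which 3 were 2-fold or more higher and 4 were lower, beside 20.3% and 13.4% of all genes, with a median log2 ratio of 0.16 beside 0.29 over all genes. Id1, a target of BMP signals, stood at 148 CPM against 11.1 CPM, a ratio of 13.3. The inhibitory Smad7 was 2.86 times higher and Id3 2.58 times higher. Id2 stood at 67.0 CPM against 1327 CPM. The receptor genes Tgfbr1 and Bmpr2 were 0.195 and 0.326 times the level of the Cpa3-high clusters. Tgfbr2, Smad1 and Smad4 had ratios of 1.12, 1.12 and 1.19. Acvrl1, the receptor that pairs with endoglin on endothelium, was not in the table.

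Of the 15 interferon targets, 9 were 2-fold or more higher in cluster 7, beside 20.3% of all genes. The other 6 did not reach 2-fold in either direction, and the list had a median log2 ratio of 1.29 beside 0.29 over all genes. Ifitm3 stood at 1206 CPM against 104 CPM, Rsad2 at 31.2 against 2.80 CPM and Ifit1 at 31.3 against 3.56 CPM. The summed level of the list, in which the most abundant genes weigh most, was 1914 CPM in cluster 7 and between 310 CPM in cluster 1 and 589 CPM in cluster 3 over the 8 Cpa3-high clusters of Em-Ex. In YS-Ex, 7 of 13 measured interferon targets were 2-fold or more higher in Cpa3-low than in Cpa3-high cells, beside 12.4% of all genes. Ly6a had a ratio of 0.807 between the same classes, and whether interferon bears on its level was not tested. Of the other Ly6 genes, Ly6e was 1.87 times higher in cluster 7, and Ly6c2 was at 9.75 CPM there against 1 UMI in the Cpa3-high clusters.

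The lists for Procr and Cd93 were also read in cluster 7. Of 8 measured genes of the protein C and thrombin list, 1 was 2-fold or more higher and 5 were lower, beside 20.3% and 13.4% of all genes. F2rl3, a thrombin receptor, stood at 4.83 against 0.191 CPM, F2r, another, was 0.542 times the level of the Cpa3-high clusters, and Tfpi, an inhibitor of tissue factor, stood at 21.1 against 44.2 CPM. Of 5 measured genes of the CD93 list, none was 2-fold or more higher, 2 were 2-fold or more lower and the others did not reach 2-fold. Msn, which links membrane proteins to actin, was 1 of the 2 lower genes, at 105 against 301 CPM.

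Over the 10 Em-Ex clusters with at least 30 cells, the genes whose log2 levels went most closely with Eng among 6116 were Mpo (r = 0.986), Il12a (0.978) and Hoxa5 (0.968). For Ly6a they were Polr2i (0.963), Tnni2 and Cd33, for Cd93 Smim11 (0.944), Ppfibp2 and Tmx3, and for Procr Clk4 (0.863), Gnpda2 and Pnkd. These values rest on 10 points from 1 library, and for Eng on 1 cluster that stood apart.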

How the data were processed

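Polyadenylated RNA of sorted CD31+CD45+c-Kit+CD41- cells was sequenced on the 10X Chromium platform, with 1 library for Em-Ex and 1 for YS-Ex. The authors deposited raw UMI counts per gene and cell; the submitters' processing notes name bcl2fastq 2.19.1.403, Cell Ranger 2.0.1 and mm10. Cells with 1000 to 5000 genes and at most 5% mitochondrial UMIs were kept, as the study's methods state. The study's figure gives 3504 Em-Ex and 3037 YS-Ex cells, as many as the deposited barcodes, of which this filter kept 3071 and 2087. Doublets were not removed and no caller was run. UMIs were pooled over cells as CPM with exact Poisson intervals, ratios have exact conditional intervals, and shares have Clopper-Pearson intervals, all at 95% and for counting error only. Log2 ratios used a prior count of 0.5. No test was run, since each group was 1 library and cells are not replicates. For shares at equal depth, cells were thinned to 2000 UMIs, and no kept cell was shallower. Counts of genes at 2-fold used genes with at least 50 UMIs over both groups. Correlations used log2(CPM + 1) and ranked genes with at least 500 Em-Ex UMIs against each of the 4 genes, which were exempt from this minimum (Eng had 340 Em-Ex UMIs and Procr 170).

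Clusters came from 2000 variable genes without the 4 genes and without 15 genes of the study's surface marker set, with mutual nearest neighbor correction (20 neighbors), 100 principal components and Leiden clustering at resolution 1 (leidenalg 0.10.2), in place of the study's own clustering, so they can differ from the study's. A cluster was Cpa3-high at 2000 CPM or more, and its leading genes are those with the largest fold among genes at 50 CPM or more. Named genes were the 4 genes, Cpa3, the listed genes, the 3 genes closest to each in pattern and the leading genes of clusters. The 4 genes and the lists were chosen with earlier results of these data known. The ratio and thinning code was tested on simulated data. Some of the listed genes are not reported here by name.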

Additional observations from a re-analysis of the deposited data

Results flagged for a closer look

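For Ly6a and Procr, the 2 groups of a contrast moved in opposite directions. With 1 library per group these differences were not tested. Ly6a in Cpa3-low against Cpa3-high cells had a log2 ratio of 1.095 in Em-Ex and -0.306 in YS-Ex. Ly6a in Em-Ex against YS-Ex had a log2 ratio of 0.583 in Cpa3-low cells and -0.818 in Cpa3-high cells. Procr in Em-Ex against YS-Ex had a log2 ratio of -1.722 in Cpa3-low cells, from 11 YS-Ex UMIs, and 1.178 in Cpa3-high cells. The YS-Ex Cpa3-low class, which enters 3 of these values, held 69 cells. Without the barcodes found in both libraries, Ly6a was -0.323 in the YS-Ex classes and 0.618 between libraries in Cpa3-low cells, and Procr between libraries in Cpa3-low cells was -1.741. The 34 YS-Ex Cpa3-low cells that sat in Cpa3-high clusters held 276 CPM of Ly6a and 22.3 CPM of Procr, and the other 35 held 202 CPM and 2.02 CPM.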

How the results depend on the processing

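All values are log2 ratios, and causes of the differences were not tested. Eng in Cpa3-low against Cpa3-high cells of Em-Ex stayed within its counting interval under every alternative run. With the Cpa3 limit at 40, 3 values changed sign: Ly6a in Cpa3-low against Cpa3-high YS-Ex cells became 0.130, Ly6a in Em-Ex against YS-Ex Cpa3-low cells became -0.057, and Procr in the Em-Ex classes, whose main interval spans no difference, became 0.900. At this limit Ly6a in the Em-Ex classes was 0.824, Ly6a between libraries in Cpa3-high cells -0.751, Procr between libraries in Cpa3-low cells -0.511, Cd93 in the YS-Ex classes -0.069 and Cd93 between libraries in Cpa3-low cells -1.041. At a limit of 10, Ly6a was 1.198 in the Em-Ex classes, -0.681 in the YS-Ex classes and 1.043 between libraries in Cpa3-low cells, and Procr was 1.182 in the YS-Ex classes and -0.415 between libraries in Cpa3-low cells. Ly6a in the Em-Ex classes was 0.997 without the upper limit on genes, 0.996 over every deposited barcode, 0.921 as a mean over cells, 0.875 after thinning and 1.176 without the macrophage, erythroid and stromal clusters. Ly6a between libraries in Cpa3-low cells was 0.248 as a mean over cells and 0.336 after thinning. Thinning gave -1.182 for Procr in the Em-Ex classes, -3.216 for Procr and -1.018 for Cd93 between libraries in Cpa3-low cells, and -0.251 for Cd93 in the YS-Ex classes. Cd93 between libraries in Cpa3-high cells was -0.494 with 10% mitochondrial UMIs allowed, -0.490 over every deposited barcode and -0.539 as a mean over cells. The other 116 values of these comparisons moved by less than their counting intervals. By cluster, at resolution 2 the cluster highest in Mpo gave 1.138 for Ly6a in place of 1.329 and -1.210 for Procr in place of -0.110. Between the highest and lowest Cpa3-high cluster of Em-Ex, Ly6a was 3.623, against 2.483 at resolution 0.5 and 4.321 with no correction between libraries, and in YS-Ex it was 5.597, against 3.588 and 3.382. The same measure moved to 6.941 for Procr in Em-Ex at resolution 2, to 2.379 for Cd93 in Em-Ex and 2.918 in YS-Ex at resolution 0.5, and to 2.765 for Cd93 in YS-Ex with no correction. No paired analysis was possible because each group was 1 library. At this depth Procr could not be ordered between most clusters, and where a library lists a gene at 0 its level there is unknown.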
